A study of Homo sapiens with 12 samples.

Results

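Imprinted genes are genes that are transcribed mainly from the chromosome inherited from 1 parent. The 33 genes described here are a list of textbook imprinted genes, chosen by symbol but with earlier results of these data known. All 33 were found among the 56638 genes of the count table. They belong to 17 domains. Of these, 6 (MEG8, MKRN3, NPAP1, SNURF, ZIM2 and NNAT) had too few reads to be tested, which left 27 among the 19130 genes tested. RNA came from NT2/D1, a human embryonal carcinoma cell line of pluripotent cells that differentiate when given all-trans retinoic acid (ATRA). There were 4 groups of 3 libraries: cells with a CRISPR/Cas9 knockout of PRMT6, untreated; CRISPR/Cas9 control cells, untreated; the knockout given 1 µM ATRA for 3 days; and the control cells given the same. The labels name a single knockout line, KO-2, and do not say whether it is a clone. Nor do they say whether replicates were grown apart, so the p-values rest on a spread that may be technical. The series asks which transcripts depend on PRMT6, an enzyme that dimethylates arginine in histone H3 and in further proteins.

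Imprinted genes sit in domains, each governed by a stretch of DNA, the imprinting control region, that carries DNA methylation on the copy from 1 parent. The mark is laid down in the egg or the sperm and is kept in the embryo while most other methylation is erased, with the help of the zinc finger proteins ZFP57 and ZNF445, which bind the methylated control regions, and of the methyltransferase DNMT1. Some control regions act by binding the insulator protein CTCF when unmethylated, and others through a long non-coding RNA that silences its neighbours. Many paternally expressed genes (IGF2, DLK1, PEG3, MEST) promote fetal or placental growth or act in its metabolism, and several maternally expressed ones (H19, IGF2R, PHLDA2) restrain it. Gene counts do not say which parental copy a read came from, so the values below are levels of both copies together.

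The libraries held 25.5 to 60.4 M counts, at which 3 counts were worth 0.128 to 0.0433 CPM, the counts scaled to a common library size. PRMT6 itself was at 0.0587 CPM or less in the 6 knockout libraries and at 1.94 to 29.9 CPM in the 6 control libraries. All 10 markers of pluripotent embryonal carcinoma cells were above 1 CPM in every library. The knockout libraries were of unequal kind. The chi-square per gene was 9.01 between untreated replicates 1 and 2 of the knockout and 1.91 between its ATRA replicates 1 and 3. All other pairs within a group had 78.1 to 416, so these near-identical pairs may not be independent cultures. The same 4 libraries summed to 12100 to 13600 CPM over 10 stromal fibroblast markers, against 2180 CPM in knockout untreated replicate 3 and 2230 CPM in knockout ATRA replicate 2. The collagen gene COL3A1 alone was at 10144 to 10915 CPM in the 4 libraries and at 1319 and 1670 CPM in the other knockout libraries. In the knockout the sum was thus mostly 1 gene. The untreated control summed to 453 to 488 CPM and the control with ATRA to 251 to 1390 CPM. Of these 10 markers 7 to 10 were above 1 CPM in each library, and at most 1 was at 0. In bulk RNA, fewer cells of a type and less RNA per cell cannot be told apart. GC content also moved with the genotype: the rank correlation over genes between GC content and each library's deviation was 0.226 to 0.617 in the knockout libraries and -0.498 to -0.287 in the control libraries other than control ATRA replicate 3, where it was 0.102.

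Windows at listed transcript starts of 4 genes that the results turn on show how much CpG content differs between such windows. They are given 5′ to 3′ on the gene's strand, from 250 bases before to 50 after a RefSeq transcript start on GRCh38.p14, a later build than that of the counts, with each CpG, the site of DNA methylation, in capitals. NDN (chr15:23687256-23687555, minus strand) and INPP5F (chr10:119726246-119726545, plus strand) are shown because they were the only members called in both treatments, in opposite directions, and both starts are dense in CpG, with 35 and 34. The second INPP5F window (chr10:119819019-119819318, plus strand, 9 CpG) lies at a transcript start far downstream. A short INPP5F transcript that starts inside the gene, and not the full-length one, is known as the imprinted product, and counts per gene cannot separate them. The first INPP5F window is shown as a listed transcript start only. It is not offered as the promoter of the full-length transcript, which was not located here. MEG3 (chr14:100825858-100826157, plus strand, 19 CpG) is the maternal RNA of the domain of DLK1, and its start is itself methylated on the paternal copy. H19 (chr11:2001217-2001516, minus strand) had the widest range of levels and only 6 CpG.
NDN: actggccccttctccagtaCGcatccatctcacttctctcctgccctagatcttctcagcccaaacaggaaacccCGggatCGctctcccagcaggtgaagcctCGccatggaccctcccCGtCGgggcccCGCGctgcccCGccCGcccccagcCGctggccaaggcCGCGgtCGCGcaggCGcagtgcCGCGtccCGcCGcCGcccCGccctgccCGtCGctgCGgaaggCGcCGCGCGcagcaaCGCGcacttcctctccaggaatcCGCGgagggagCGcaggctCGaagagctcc
INPP5F: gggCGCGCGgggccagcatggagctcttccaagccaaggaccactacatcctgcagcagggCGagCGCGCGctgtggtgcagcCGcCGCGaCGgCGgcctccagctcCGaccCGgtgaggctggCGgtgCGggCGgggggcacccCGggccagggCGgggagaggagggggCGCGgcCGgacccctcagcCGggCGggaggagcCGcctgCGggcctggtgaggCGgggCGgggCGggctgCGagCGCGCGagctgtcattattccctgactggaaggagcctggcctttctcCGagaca
INPP5F downstream start: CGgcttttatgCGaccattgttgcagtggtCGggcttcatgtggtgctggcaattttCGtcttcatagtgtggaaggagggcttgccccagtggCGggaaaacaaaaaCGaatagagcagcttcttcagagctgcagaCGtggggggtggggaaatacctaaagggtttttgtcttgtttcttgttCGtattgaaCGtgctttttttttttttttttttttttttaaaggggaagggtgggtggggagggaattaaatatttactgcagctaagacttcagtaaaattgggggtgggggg
MEG3: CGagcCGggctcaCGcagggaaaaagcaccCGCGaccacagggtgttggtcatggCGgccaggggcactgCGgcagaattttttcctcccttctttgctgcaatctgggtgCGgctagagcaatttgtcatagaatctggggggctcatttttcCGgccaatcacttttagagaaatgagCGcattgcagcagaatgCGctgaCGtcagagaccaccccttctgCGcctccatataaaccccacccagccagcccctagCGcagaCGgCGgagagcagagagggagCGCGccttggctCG
H19: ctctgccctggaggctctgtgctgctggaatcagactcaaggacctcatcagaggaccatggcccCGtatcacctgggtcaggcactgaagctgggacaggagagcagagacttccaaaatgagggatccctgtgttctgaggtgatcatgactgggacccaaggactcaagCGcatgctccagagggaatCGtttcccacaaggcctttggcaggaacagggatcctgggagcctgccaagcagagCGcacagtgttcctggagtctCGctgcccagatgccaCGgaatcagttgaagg

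RefSeq gave 50 such windows for 21 of the 33 genes. Their median was 18 CpG, against 14 over 35116 windows of 27305 gene symbols. The letters TGCCGC, the core of the methylated site that ZFP57 binds in control regions, stood on at least 1 strand in 44% of the members' windows, against 16.7% of all windows. The letters AGGTCA, the unit of sites bound by retinoic acid receptors, stood in 14% against 13.8%. Both strands were searched and the motifs do not overlap each other. A match is a description of the letters and not of a bound site. Windows of a gene can overlap, and SNRPN and SNURF share a window, so the 50 windows are not 50 separate starts. TGCCGC holds a CpG and the members' windows were richer in CpG, for which the comparison was not adjusted.

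The 33 genes covered nearly the whole range of expression. On a per-length scale (TPM, counts divided by gene length and scaled to an equal sum, from the deposited gene lengths), H19 stood highest in all groups but the untreated control, where GNAS and PEG10 were above it. H19 averaged 1783 TPM in the untreated knockout and 171 TPM in the untreated control, and 5324 TPM in the knockout with ATRA and 5268 TPM in the control with ATRA. GNAS, which encodes the stimulatory G protein alpha subunit, averaged 544 and 289 TPM untreated and 575 and 405 TPM with ATRA, in knockout and control. NDN, PEG10, MEST, BLCAP, IGF2R and DLK1 had means of 27.1 to 328 TPM across the groups. IGF2, the fetal growth factor gene beside H19, averaged only 1.40 to 3.74 TPM, so of this pair the maternal RNA had the higher mean in every group. H19 was not abundant in every library: it ranked 8711 and 3649 among all genes in control untreated replicates 2 and 3. SNURF, which shares its transcript with SNRPN and whose reads may be split from it by the counting, had 2 to 9 counts per library. NNAT had 3 counts in all 12 libraries together, MEG8 2 counts, ZIM2 at most 4 and NPAP1 at most 6 in a library. MKRN3 had 19 and 60 counts in control untreated replicates 2 and 3, and at most 2 in each of the other 10 libraries.

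**Figure D1:**
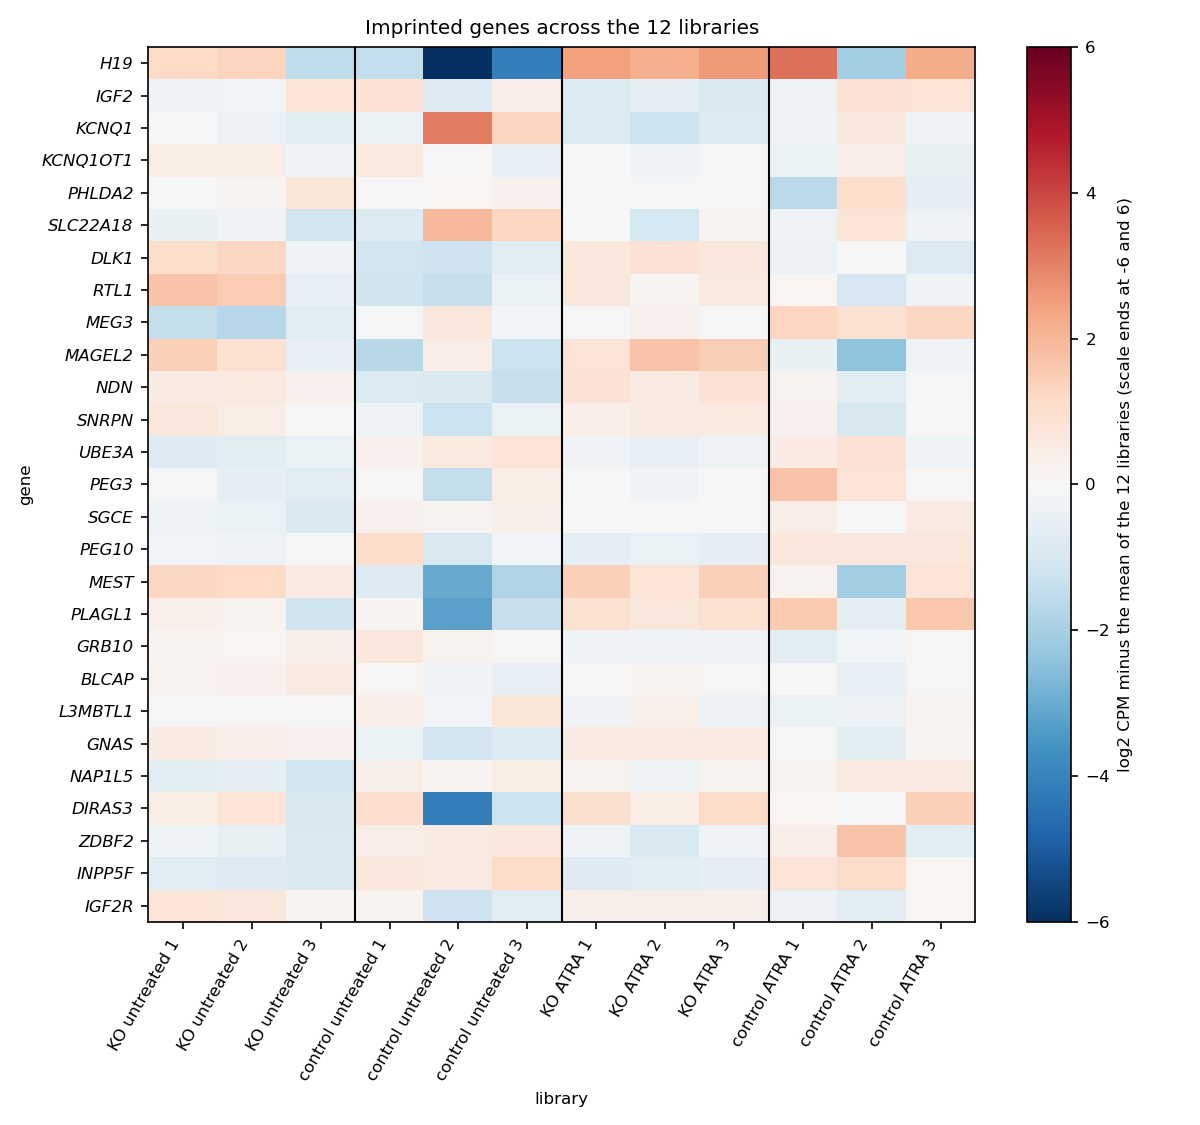
The 27 tested imprinted genes (rows, by domain) in the 12 libraries (columns), as log2 CPM minus the gene's mean over the 12 libraries. H19 spans the widest range, with control untreated replicate 2 at -6.10 and control ATRA replicate 1 at 3.29, and INPP5F is below its mean in all 6 knockout libraries and above it in all 6 control libraries.

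In untreated cells 15 of the 27 tested genes were called between knockout and control, 8 higher and 7 lower, at an adjusted p under 0.05 (edgeR, adjusted over all genes tested). This is 55.6% of the tested members, against a background of 34.9% of all genes tested, 13.0% higher and 21.9% lower. The genes called higher were H19, DLK1, RTL1, NDN, SNRPN, MEST, GNAS and IGF2R. The genes called lower were KCNQ1, SLC22A18, MEG3, UBE3A, SGCE, NAP1L5 and INPP5F. With each pair of near-identical knockout libraries summed and counted as 1 sample, 3 members were called (DLK1, NDN and INPP5F), and the other 12 were not, beside 5.42% of all genes. Without knockout untreated replicate 1 or 2 the count was 8 and 7, and without both knockout untreated replicate 3 and ATRA replicate 2, the knockout libraries lowest in stromal markers, it was 10, beside 19.2%, 15.5% and 22.7% of all genes. The libraries of the groups did not overlap for 12 members, 6 higher and 6 lower in the knockout, against 47.9% of all genes, 20.9% higher and 27.0% lower. The median log2 fold change of the members was 0.16, against -0.11 for all genes tested. Grouped by the parental copy usually active, 5 of 16 tested paternally expressed genes were called higher and 2 lower, with a median log2 fold change of 0.37. Of 6 tested maternally expressed genes, 1 was called higher and 4 lower, with a median of -1.32. The other 5 members have an imprint that depends on tissue, transcript or person, and 2 of them were called higher and 1 lower. UBE3A was counted as maternally expressed, although its paternal silencing is known from neurons. Of the 4 maternally expressed genes called lower, KCNQ1, SLC22A18 and MEG3 were not called without control untreated replicate 2. The last, UBE3A, was not called with each library's GC trend removed.

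**Figure D2:**
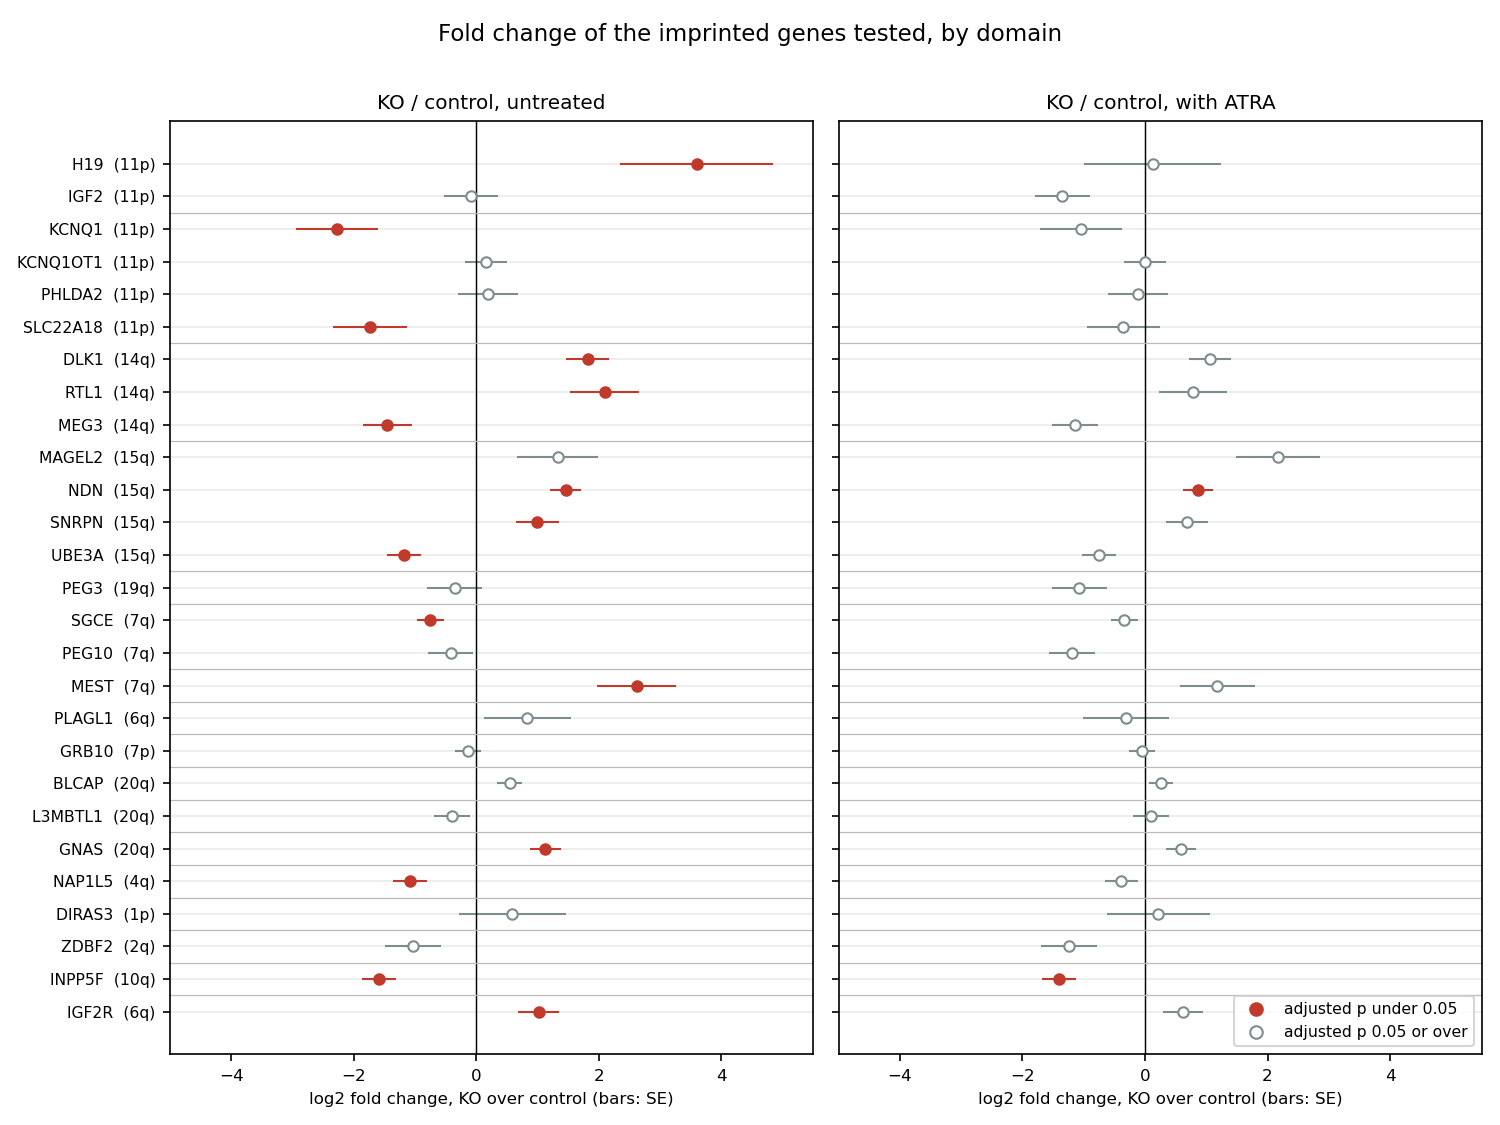
Log2 fold change, knockout over control, of the 27 tested imprinted genes with its standard error, untreated (left) and with ATRA (right), ordered by domain. Filled red points are called (edgeR adjusted p under 0.05), 15 untreated and 2 with ATRA.

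At 15q11-q13, the region whose paternal loss causes Prader-Willi syndrome, NDN and SNRPN, both paternally expressed, were called higher and the maternally expressed UBE3A lower in untreated cells. Not all paternally expressed genes of the domain were higher. MKRN3, with too few reads to be tested, was at 0, 0 and 0.0428 CPM in untreated knockout cells, against 0.0267, 0.335 and 0.865 CPM in untreated control cells. NDN, which encodes the growth suppressor necdin, was at 164, 175 and 142 CPM in untreated knockout cells, against 65.8, 65.3 and 44.6 CPM in untreated control cells. Every knockout library was above every control library, and NDN rose 2.74-fold (log2 fold change of 1.46 with a standard error (SE) of 0.25, edgeR adjusted p = 0.00321). SNRPN, which encodes a spliceosomal protein of brain, was at 14.9, 12.6 and 9.42 CPM in knockout cells, against 7.58, 3.84 and 7.11 CPM in control cells. Its libraries did not overlap either, and the rise was 1.99-fold (edgeR adjusted p = 0.0427), not called with each library's GC trend removed (edgeR adjusted p = 0.134). UBE3A encodes the ubiquitin ligase lost in Angelman syndrome, and its paternal silencing is known from neurons. It was at 17.7, 18.6 and 23.1 CPM in knockout cells, against 36.2, 45.7 and 53.3 CPM in control cells. All 3 knockout libraries lay below the control, and UBE3A fell by 1.19 ± 0.28 (SE) on the log2 scale (edgeR adjusted p = 0.0093). With the GC trend removed this became -0.26, no longer called (edgeR adjusted p = 0.316). The ratio of NDN to UBE3A reads was 9.26, 9.44 and 6.16 in the knockout, against 1.82, 1.43 and 0.836 in the control. MAGEL2, an activator of ubiquitin ligases, averaged 0.737 CPM in knockout cells and 0.290 CPM in control cells and was not called (edgeR adjusted p = 0.131), although it was without control untreated replicate 2 (0.036). SNHG14, the long non-coding RNA that runs through SNRPN and against UBE3A, was chosen for mention after its values were seen. It was called lower, in the direction opposite to NDN and SNRPN. Its levels were 60.8 ± 18.4 CPM in knockout cells and 115 ± 6.0 CPM in control cells (mean ± SD, n = 3 each, edgeR adjusted p = 0.0188). It was called in 15 of 21 alternative settings, and not without knockout untreated 2 or 3 or control untreated 3. Its log2 fold change was 0.02 with the GC trend removed (edgeR adjusted p = 0.967). The strand setting of the counting is not given in the sources used here, so reads of SNHG14 and UBE3A cannot be told apart with certainty.

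At 14q32 the paternally expressed DLK1 and RTL1 were called higher and the maternally expressed MEG3 lower in the untreated knockout. DLK1, a transmembrane ligand of the Notch family type that marks immature cells, was at 74.0, 85.6 and 30.4 CPM in knockout cells, against 17.0, 15.2 and 21.8 CPM in control cells. Replicate 3 of the knockout was well below the other two but still above every control library. DLK1 rose 3.52-fold (log2 fold change of 1.81 with an SE of 0.35, edgeR adjusted p = 0.00472). RTL1, a retrotransposon-derived gene needed for the placenta in mice, and MEG3, a long non-coding RNA, were under 5 CPM everywhere, and their values per library are given because they share this domain. RTL1 was at 1.19, 1.05 and 0.257 CPM in knockout cells, against 0.160, 0.141 and 0.274 CPM in control cells, so that knockout replicate 3 fell within the control range (log2 fold change of 2.09 with an SE of 0.56, edgeR adjusted p = 0.0147). MEG3 was at 0.316, 0.262 and 0.514 CPM in knockout cells, against 0.801, 1.39 and 0.779 CPM in control cells, with no overlap (log2 fold change of -1.45 with an SE of 0.40, edgeR adjusted p = 0.0165). RTL1 was not called without knockout untreated replicate 1 or 2 (edgeR adjusted p = 0.0627 and 0.0604) or with the GC trend removed (0.0705), nor was MEG3 without knockout untreated replicate 1 or 2 or control untreated replicate 2 (0.0641, 0.0788 and 0.0508). RTL1 lies opposite a maternal antisense RNA, which unstranded counting would add to it.

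DIO3, at the far end of the same domain, is no member of the 33 but belongs to a second list of imprinted genes. It is paternally expressed and encodes the deiodinase that inactivates thyroid hormone. In untreated cells it was at 6.36, 7.36 and 49.8 CPM in knockout cells, against 1.68, 0.792 and 1.96 CPM in control cells (edgeR adjusted p = 0.00684). With ATRA it was at 28.2, 109 and 30.7 CPM in knockout cells, against 2.74, 3.46 and 1.92 CPM in control cells (edgeR adjusted p = 0.0131). Knockout untreated replicate 3 and ATRA replicate 2, the libraries with the lowest stromal marker sums of the knockout, were the highest for DIO3, while replicate 3 was the lowest of its group for DLK1 and RTL1. Both comparisons were called in each of the 20 alternative settings that gave DIO3 a value.

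**Figure D3:**
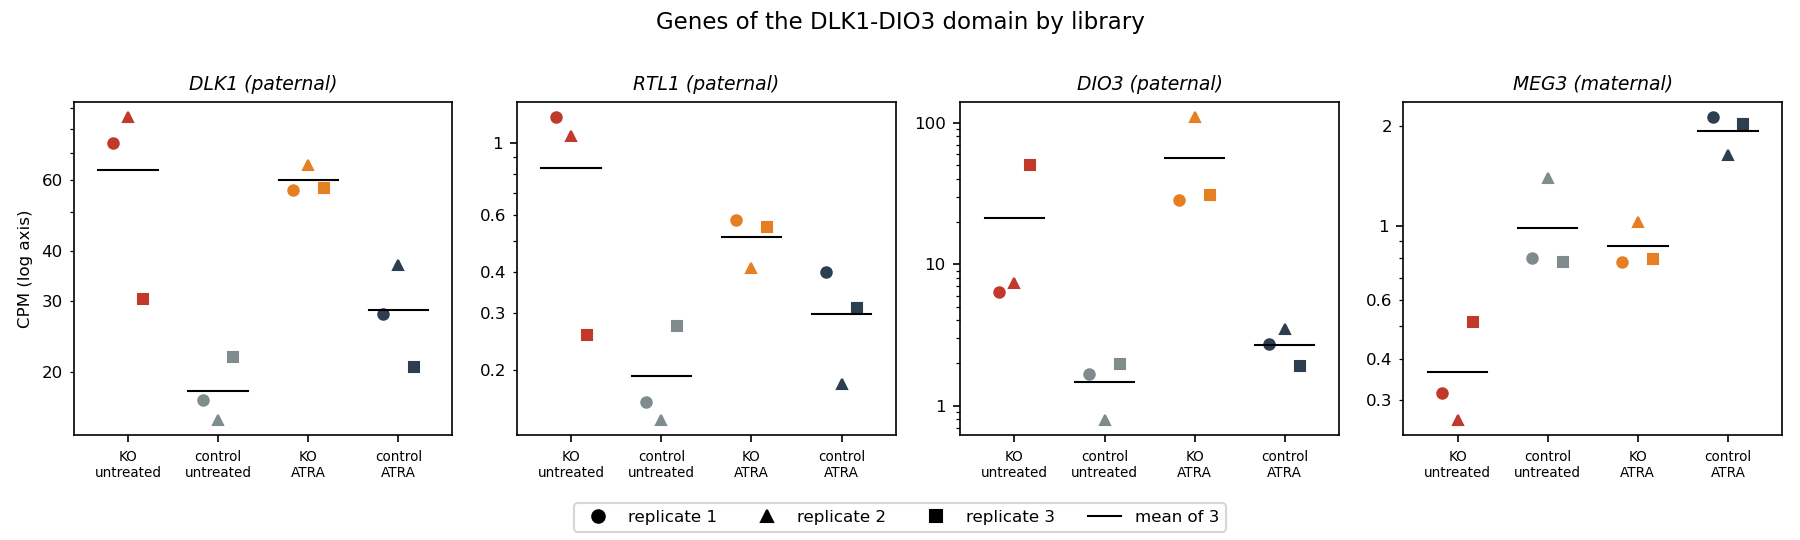
CPM (log axis) of DLK1, RTL1, DIO3 and MEG3 in each library, with the mean of 3 as a line and symbols for the replicate number. DLK1 and DIO3 are higher and MEG3 lower in every knockout library than in every control library of the same treatment, whereas RTL1 overlaps in untreated cells.

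At 11p15 the abundance of H19 differed more between libraries of 1 group than most members did between genotypes. H19, a maternally expressed non-coding RNA and precursor of a microRNA, was at 2111, 2369 and 318 CPM in untreated knockout cells, against 330, 13.5 and 54.4 CPM in untreated control cells. Knockout replicate 3 was just below control replicate 1, so the groups overlapped by that pair. The fitted change was 12.1-fold (log2 fold change of 3.59 with an SE of 1.24, edgeR adjusted p = 0.041). The call was lost without any one of 7 libraries: knockout untreated 1 or 2, control untreated 2 or 3, or knockout ATRA 1, 2 or 3 (edgeR adjusted p = 0.0506 to 0.134, log2 fold change 3.06 to 3.6). Without control untreated replicate 1 the log2 fold change was 5.56 and H19 was called (edgeR adjusted p = 0.01). It was 3.11 with the GC trend removed, and H19 was not called (edgeR adjusted p = 0.0918). Limma-voom gave 4.28 and the replicate block 4.51, both called. COL3A1, a collagen of stromal cells, followed the same order in the untreated knockout, at 10570, 10915 and 1319 CPM. Among knockout libraries given ATRA, COL3A1 was 10266, 1670 and 10144 CPM, whereas H19 spanned only 4164 to 5512 CPM and peaked in replicate 3. Untreated control libraries had COL3A1 levels of 69.7, 1.88 and 121 CPM, highest in replicate 3, whereas H19 was highest in replicate 1. The orders matched in ATRA-treated control libraries (COL3A1 of 613, 39.3 and 569 CPM). The part of COL3A1 in the H19 result was not tested. IGF2 averaged 6.40 ± 2.76 CPM in knockout cells and 6.81 ± 3.37 CPM in control cells (SD, n = 3 each) and was not called (edgeR adjusted p = 0.888). The ratio of H19 to IGF2 reads was 442, 489 and 33.1 in the knockout, against 33.1, 4.14 and 7.54 in the control.

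In the neighbouring KCNQ1 domain the 2 called genes, KCNQ1 and SLC22A18, were lower in the untreated knockout, and control replicate 2 decided much of both. KCNQ1, a cardiac and epithelial potassium channel, averaged 1.02 ± 0.208 CPM in knockout cells and 4.95 ± 5.09 CPM in control cells (mean ± SD, n = 3 each, edgeR adjusted p = 0.0219). SLC22A18, a transporter of organic cations, was at 2.07, 2.49 and 1.33 CPM in knockout cells, against 1.63, 11.1 and 6.98 CPM in control cells (edgeR adjusted p = 0.0417). Control replicate 1 lay inside the knockout range for both. Without control untreated replicate 2, the log2 fold change was -1.04 for KCNQ1 and -1.14 for SLC22A18 (edgeR adjusted p = 0.136 and 0.166), against -2.28 and -1.74 with it. KCNQ1 was also not called without any one of the 3 untreated knockout libraries (0.0572 to 0.0742). SLC22A18 was also not called without any one of these, control untreated 3, knockout ATRA 1 or 3, or control ATRA 3 (0.0538 to 0.124). PHLDA2, a placental growth brake and the highest gene of the domain, was at 17.7, 19.8 and 29.0 CPM in knockout cells, against 17.6, 19.2 and 21.2 CPM in control cells (edgeR adjusted p = 0.775). KCNQ1OT1, the paternal antisense RNA that silences the domain, averaged 7.91 CPM in knockout cells and 7.11 CPM in control cells (edgeR adjusted p = 0.743), with the same limit on strand as above.

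The largest fitted increase after H19 was that of MEST at 7q32, a paternally expressed gene of the hydrolase family that promotes growth. MEST was at 489, 472 and 290 CPM in untreated knockout cells, against 119, 24.99 and 59.6 CPM in untreated control cells. All knockout libraries were above the control, and MEST rose 6.14-fold (log2 fold change of 2.62 with an SE of 0.64, edgeR adjusted p = 0.0108). Without control untreated replicate 1 its log2 fold change was 3.30. At 7q21 the paired genes PEG10 and SGCE, which share a control region and are transcribed away from each other, behaved differently. SGCE, which encodes a sarcoglycan mutated in myoclonus dystonia, was at 20.9, 18.9 and 13.9 CPM in knockout cells, against 29.9, 28.0 and 32.6 CPM in control cells, without overlap (log2 fold change of -0.75 with an SE of 0.23, edgeR adjusted p = 0.0237). It was the most AT-rich of the tested members, and with the GC trend removed its direction turned to a log2 fold change of 0.35 (edgeR adjusted p = 0.534). It was also not called without knockout untreated 2 or 3 or control untreated 3 (edgeR adjusted p = 0.0685, 0.0897 and 0.0741). PEG10, a retrotransposon-derived gene needed for the placenta in mice, was at 370, 344 and 401 CPM in knockout cells, against 895, 222 and 376 CPM in control cells, and was not called (edgeR adjusted p = 0.385).

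GNAS and IGF2R, both abundant, were higher in the untreated knockout. GNAS, whose several promoters give maternal, paternal and biallelic transcripts that a count per gene merges, was at 2465, 2363 and 2152 CPM in knockout cells, against 1350, 828 and 1018 CPM in control cells. The groups did not overlap and GNAS rose 2.18-fold (edgeR adjusted p = 0.007), and its log2 fold change of 1.13 became 1.72 with the GC trend removed. IGF2R, the receptor that takes up and degrades IGF2, was at 376, 356 and 250 CPM in knockout cells, against 258, 92.5 and 135 CPM in control cells, where replicate 1 reached into the knockout range (log2 fold change of 1.02 with an SE of 0.34, edgeR adjusted p = 0.0343). Without knockout untreated 1 or 2 or control untreated 2 or 3, IGF2R was not called (edgeR adjusted p = 0.0908 to 0.118), nor with the GC trend removed (0.0559).

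INPP5F and NAP1L5 were lower in the untreated knockout. INPP5F, which encodes a phosphatase of phosphoinositides (SAC2), was at 9.17, 8.80 and 8.31 CPM in knockout cells, against 23.5, 22.1 and 33.6 CPM in control cells. It was 3.01-fold lower, with no overlap and with little spread in the knockout (log2 fold change of -1.59 with an SE of 0.28, edgeR adjusted p = 0.00359). NAP1L5, a nucleosome assembly protein gene nested in HERC3, was at 3.13, 3.37 and 2.18 CPM in knockout cells, against 6.25, 5.46 and 6.70 CPM in control cells (log2 fold change of -1.08 with an SE of 0.28, edgeR adjusted p = 0.0132). The levels of NAP1L5 did not overlap either. With the GC trend removed NAP1L5 was at -0.57 on the log2 scale and not called (edgeR adjusted p = 0.137).

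Another 12 tested members were not called in untreated cells. BLCAP, which hosts NNAT in an intron, came closest, at 128, 134 and 160 CPM in knockout cells, against 115, 95.9 and 78.0 CPM in control cells (edgeR adjusted p = 0.0518). ZDBF2, a zinc finger gene of brain, also had no overlap, with means of 9.94 and 20.3 CPM in knockout and control (edgeR adjusted p = 0.095). PEG3, a zinc finger gene tied to maternal care in mice, was at 66.2, 47.8 and 43.1 CPM in knockout cells, against 74.7, 26.9 and 99.5 CPM in control cells (edgeR adjusted p = 0.547). PLAGL1, a zinc finger factor of transient neonatal diabetes, averaged 33.5 ± 15.6 CPM in knockout cells and 18.8 ± 18.3 CPM in control cells (mean ± SD, n = 3 each, edgeR adjusted p = 0.369). GRB10, an adaptor that dampens insulin receptor signals, averaged 157 and 173 CPM, L3MBTL1, a chromatin-compacting protein, 12.1 and 15.9 CPM, and DIRAS3, a small GTPase, 1.10 and 0.756 CPM, in knockout and control. None of the 3 was called (edgeR adjusted p = 0.626, 0.301 and 0.614). BLCAP was called higher in 8 of 21 alternatives, among them the one with the GC trend removed (edgeR adjusted p = 0.0124), in which GRB10 and L3MBTL1 were also called, both lower, at log2 fold changes of -0.63 and -1.01 (edgeR adjusted p = 0.0423 and 0.0255). Without control untreated replicate 1, PLAGL1 and DIRAS3 were called higher, at log2 fold changes of 1.95 and 2.33 (edgeR adjusted p = 0.0433 and 0.0337). ZDBF2 was called lower without control ATRA replicate 2 or 3 (edgeR adjusted p = 0.021 and 0.0452).

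**Figure D4:**
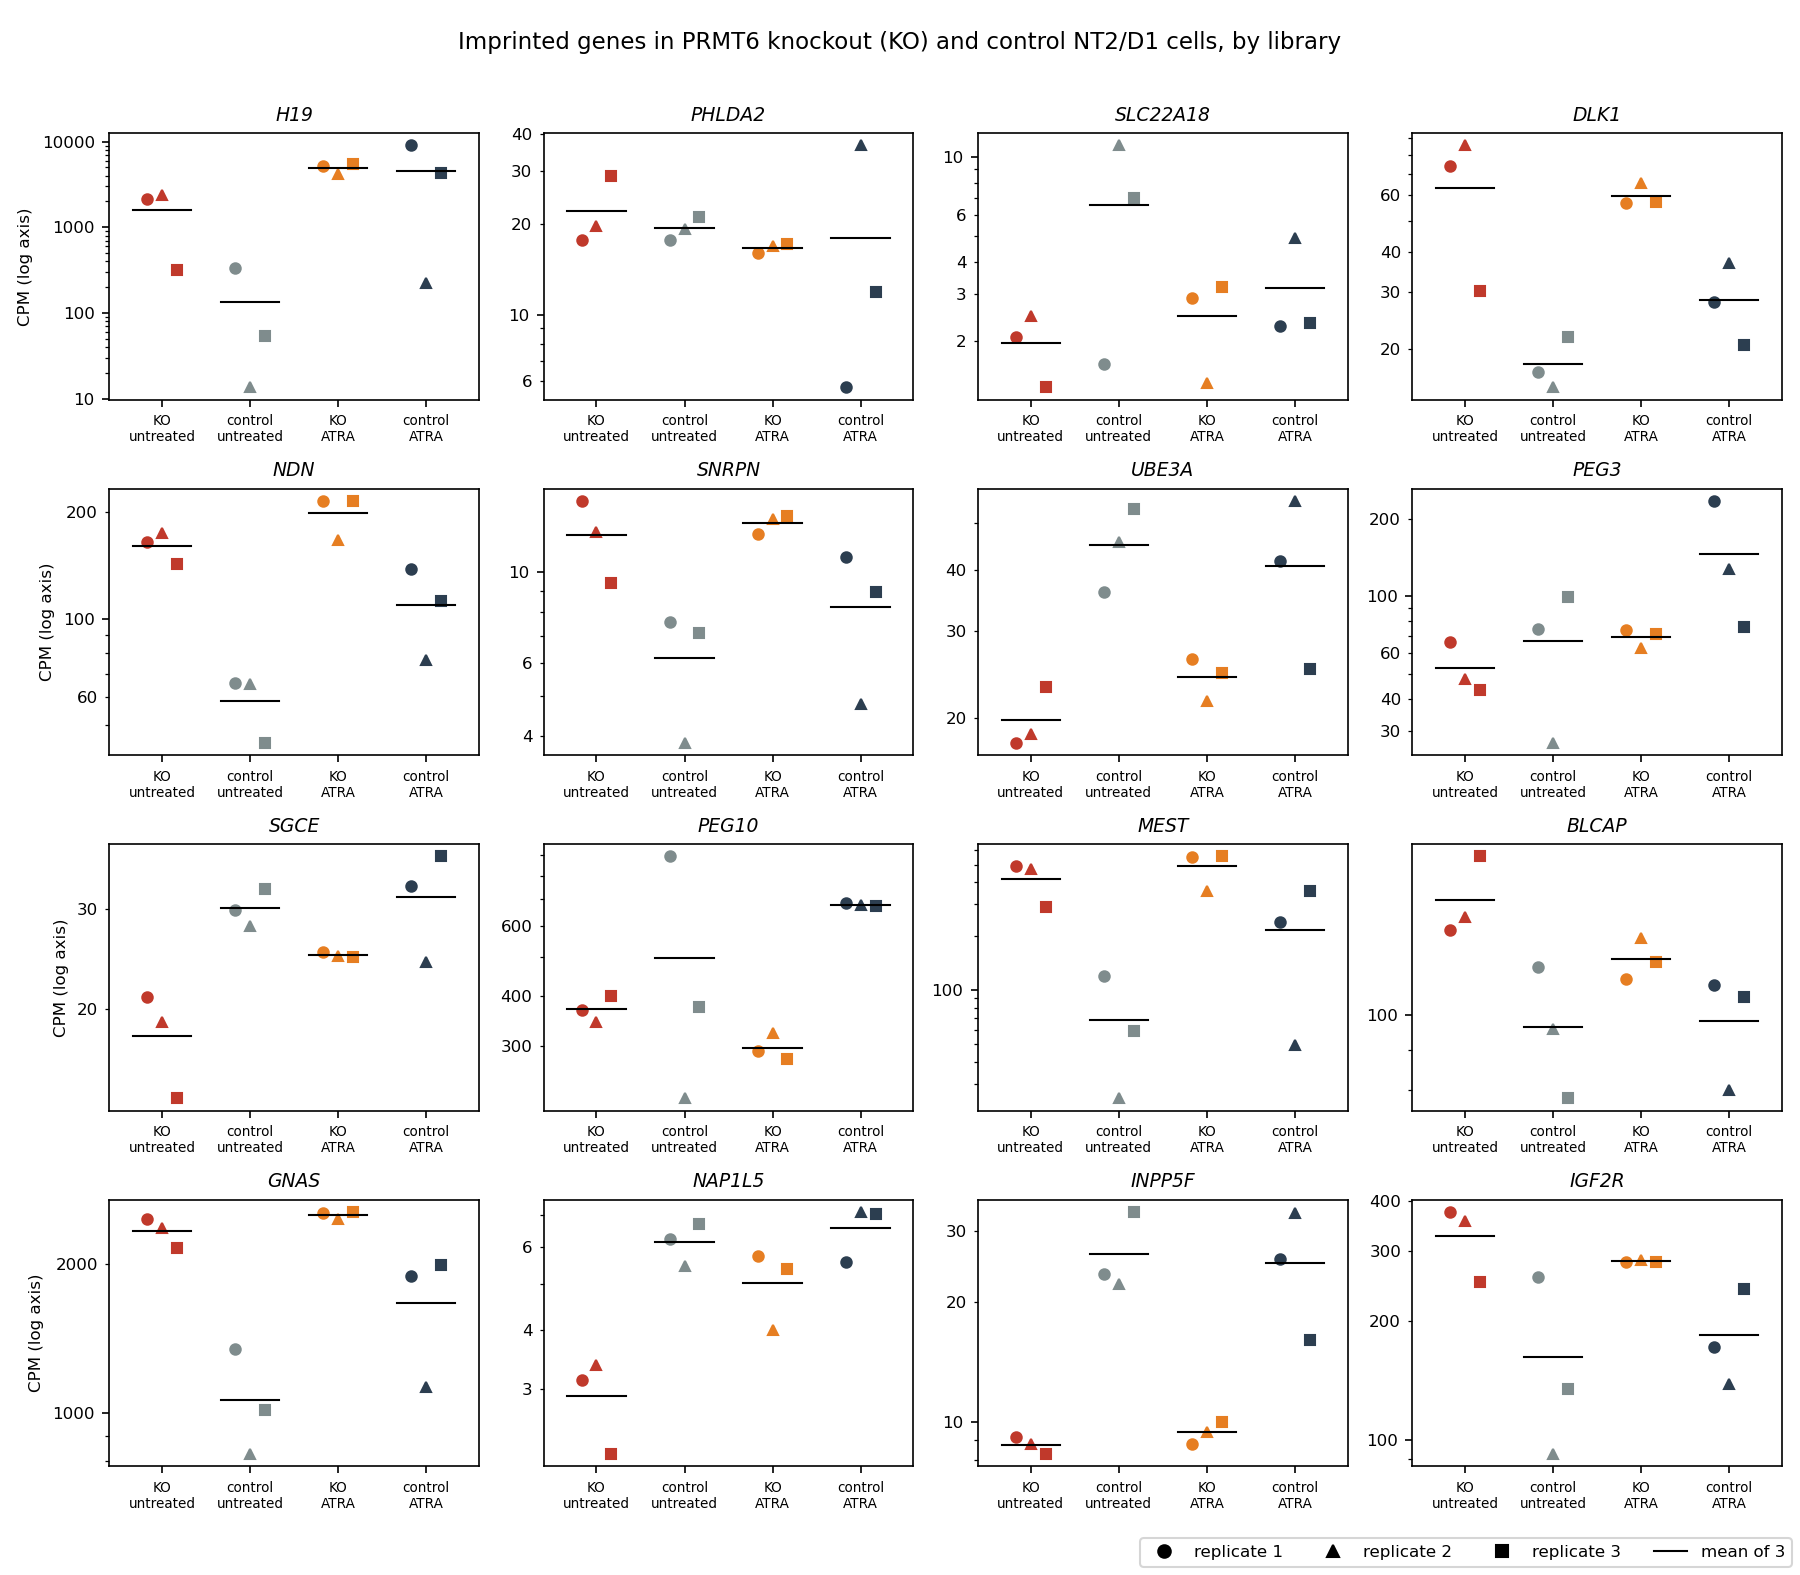
CPM (log axis) per library for the 16 members that reached a mean of 5 CPM in a group and were called in a comparison, or were the highest of their domain. Bars mark the mean of 3 libraries and symbols the replicate number, as in knockout INPP5F at 8.31 to 9.17 CPM and control INPP5F at 22.1 to 33.6 CPM, untreated.

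How firm these calls are varied with the gene. DLK1, NDN and INPP5F were called in untreated cells in each of 21 alternative settings, with log2 fold changes of 1.18 to 2.15, 0.93 to 1.55 and -1.71 to -1.24. GNAS and MEST were lost only when the near-identical knockout libraries were summed and counted as 1 (edgeR adjusted p = 0.054 and 0.0583). SNRPN was lost without any one of 7 libraries: knockout untreated 1 or 2, control untreated 2 or 3, or knockout ATRA 1, 2 or 3 (edgeR adjusted p = 0.0532 to 0.138).

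With ATRA, 2 of the 27 tested members were called between knockout and control, NDN higher and INPP5F lower. This is 7.41%, against 7.51% of all genes, 3.27% higher and 4.24% lower, so the members' share was that of the background. DESeq2 called 7, beside 15.5% of all genes, and 6 were called without control untreated replicate 2, beside 10.9%. With the near-identical libraries summed, or without knockout ATRA replicate 1 or 3, edgeR called 0. NDN was at 215, 167 and 215 CPM in ATRA-treated knockout cells, against 138, 76.5 and 112 CPM in ATRA-treated control cells, without overlap (log2 fold change of 0.87 with an SE of 0.24, edgeR adjusted p = 0.0494). That call lay at the threshold and held in 8 of 21 alternative settings, and it was lost without any one of knockout untreated 1, 2 or 3, knockout ATRA 1, 2 or 3, or control ATRA 2 or 3 (edgeR adjusted p = 0.0612 to 0.172). INPP5F was at 8.81, 9.45 and 10.0 CPM in knockout cells, against 25.5, 33.4 and 16.1 CPM in control cells. It was 2.65-fold lower, again without overlap (log2 fold change of -1.41 with an SE of 0.28, edgeR adjusted p = 0.0146). Without knockout ATRA 1 or 3 it was not called (edgeR adjusted p = 0.0789 and 0.0674).

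The libraries did not overlap for 15 of the 27 members with ATRA, 9 higher and 6 lower in the knockout, against 34.6% of all genes, 16.7% higher and 17.9% lower. DLK1 was at 56.7, 65.2 and 57.2 CPM in knockout cells, against 27.9, 36.9 and 20.6 CPM in control cells (log2 fold change of 1.07 with an SE of 0.34, edgeR adjusted p = 0.0719). MEG3 averaged 0.870 ± 0.137 CPM in knockout cells and 1.93 ± 0.256 CPM in control cells (mean ± SD, n = 3 each, edgeR adjusted p = 0.0754). The ratio of DLK1 to MEG3 reads was 72.4, 63.5 and 71.6 in the knockout, against 13.2, 22.6 and 10.2 in the control. IGF2 was at 3.10, 3.64 and 2.89 CPM in knockout cells and at 4.80, 10.2 and 9.54 CPM in control cells, also without overlap (edgeR adjusted p = 0.0777). PEG10 had its least spread here, at 291, 323 and 278 CPM in knockout cells, against 685, 675 and 672 CPM in control cells (log2 fold change of -1.19 with an SE of 0.37, edgeR adjusted p = 0.0681). MAGEL2 averaged 1.09 and 0.241 CPM in knockout and control with ATRA (edgeR adjusted p = 0.069). None of these passed the threshold over all genes tested.

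H19 and MEST were uneven with ATRA, through the control. H19 was at 5123, 4164 and 5512 CPM in ATRA-treated knockout cells, against 9036, 226 and 4322 CPM in ATRA-treated control cells (edgeR adjusted p = 0.956). MEST was at 552, 358 and 555 CPM in knockout cells, against 241, 49.7 and 356 CPM in control cells (edgeR adjusted p = 0.23). Control ATRA replicate 2 was the lowest for both, and it had the lowest stromal marker sum of all libraries, 251 CPM. GNAS was at 2536, 2461 and 2548 CPM in knockout cells, against 1887, 1128 and 1995 CPM in control cells (edgeR adjusted p = 0.138), with the same library lowest. UBE3A was at 26.3, 21.6 and 24.7 CPM in knockout cells, against 41.7, 55.4 and 25.1 CPM in control cells (edgeR adjusted p = 0.105). PEG3 was at 73.6, 63.1 and 71.1 CPM in knockout cells, against 234, 127 and 75.9 CPM in control cells (edgeR adjusted p = 0.141). The other members with values per library (PHLDA2, SLC22A18, SNRPN, SGCE, BLCAP, NAP1L5 and IGF2R) had edgeR adjusted p-values of 0.219 to 0.906 with ATRA.

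ATRA itself moved no member past the threshold in either genotype. In the knockout, 0 of 27 were called by edgeR, 4 had an unadjusted p under 0.05, and DESeq2 and limma-voom also called 0, beside 0.0314% of all genes called by edgeR. In the control, 0 of 27 were called by edgeR, 9 had an unadjusted p under 0.05, and limma-voom called 0, beside 0.115% of all genes called by edgeR. DESeq2 called 3 members, beside 8.47% of all genes. The libraries did not overlap between ATRA and untreated for 11 members in the knockout, 5 higher and 6 lower with ATRA, against 31.9% of all genes, 17.2% higher and 14.7% lower. In the control this was so for 3 members, 2 higher and 1 lower, against 14.8%, 7.39% and 7.44%. H19 averaged 4933 ± 694 CPM in ATRA-treated knockout cells and 1599 ± 1117 CPM in untreated knockout cells, with no overlap (mean ± SD, n = 3 each, log2 fold change of 1.63 with an SE of 1.15, edgeR adjusted p = 0.666). It averaged 4528 ± 4409 CPM in ATRA-treated control cells and 133 ± 172 CPM in untreated control cells (mean ± SD, n = 3 each, log2 fold change of 5.09 with an SE of 1.34, edgeR adjusted p = 0.0793). As a share of all counts, H19 took 0.401% to 0.524% in the 3 knockout libraries with ATRA and 0.0291% to 0.224% in the untreated ones. In the control it took 0.0233% to 0.916% with ATRA and 0.00145% to 0.0345% untreated, and it ranked 2 among all genes in control ATRA replicate 1 and 8711 in control untreated replicate 2. Left-out libraries mattered here too: the control's count of called members was 9 without control untreated replicate 1, beside 12.4% of all genes, and 6 without control ATRA replicate 2, beside 12.3%. NDN averaged 109 ± 31.1 CPM in ATRA-treated control cells and 58.6 ± 12.1 CPM in untreated control cells, and its libraries did not overlap (mean ± SD, n = 3 each, edgeR adjusted p = 0.0837).

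A test of whether the difference between genotypes changed with ATRA called 0 of the 27 members by edgeR, with 0 at an unadjusted p under 0.05 and 0 by DESeq2 and limma-voom, beside 0.00% of all genes called. H19 had an interaction of -3.47 ± 1.63 (log2, SE) and an edgeR adjusted p of 0.522. The 2 members called with ATRA and the 15 called untreated therefore do not show that any one gene's difference between genotypes changed with ATRA.

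Libraries of a group differed in how they ranked for the members as a whole. Knockout untreated replicate 3 was the lowest of its group for 20 of 27 members, against 39.0% of all genes tested, and control untreated replicate 2 for 16 of 27, against 38.2%. Among members of at least 5 CPM the median coefficient of variation was 21.3% in the untreated knockout, 27.6% in the untreated control, 7.95% in the knockout with ATRA and 34.7% in the control with ATRA. Over all genes of that level it was 13.1%, 30.2%, 12.8% and 26.2% in the same order of groups.

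GC content differed among the called members. In untreated cells the 8 genes called higher had a median GC content of 51.0% in their longest transcript and the 7 called lower 44%, against 55.4% and 41.0% for all genes called higher and lower. The members' ranges largely overlapped, at 42.1% to 63.6% for those called higher and 34.2% to 63.6% for those called lower. With the GC trend of each library removed, 11 members were called, beside 20.5% of all genes, and 8 of them were among the 15 called as counted. The 7 lost were H19, RTL1, SNRPN, IGF2R, UBE3A, SGCE and NAP1L5, and the 3 gained were BLCAP, GRB10 and L3MBTL1. Of the 8, INPP5F, MEST and MEG3, at 44% to 48.1% GC, had log2 fold changes of -1.59, 2.62 and -1.45 as counted and of -1.24, 2.70 and -1.71 with the trend removed. For NDN and DLK1 these values were 0.93 and 1.18 with the trend removed, against 1.46 and 1.81 as counted.

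**Figure D5:**
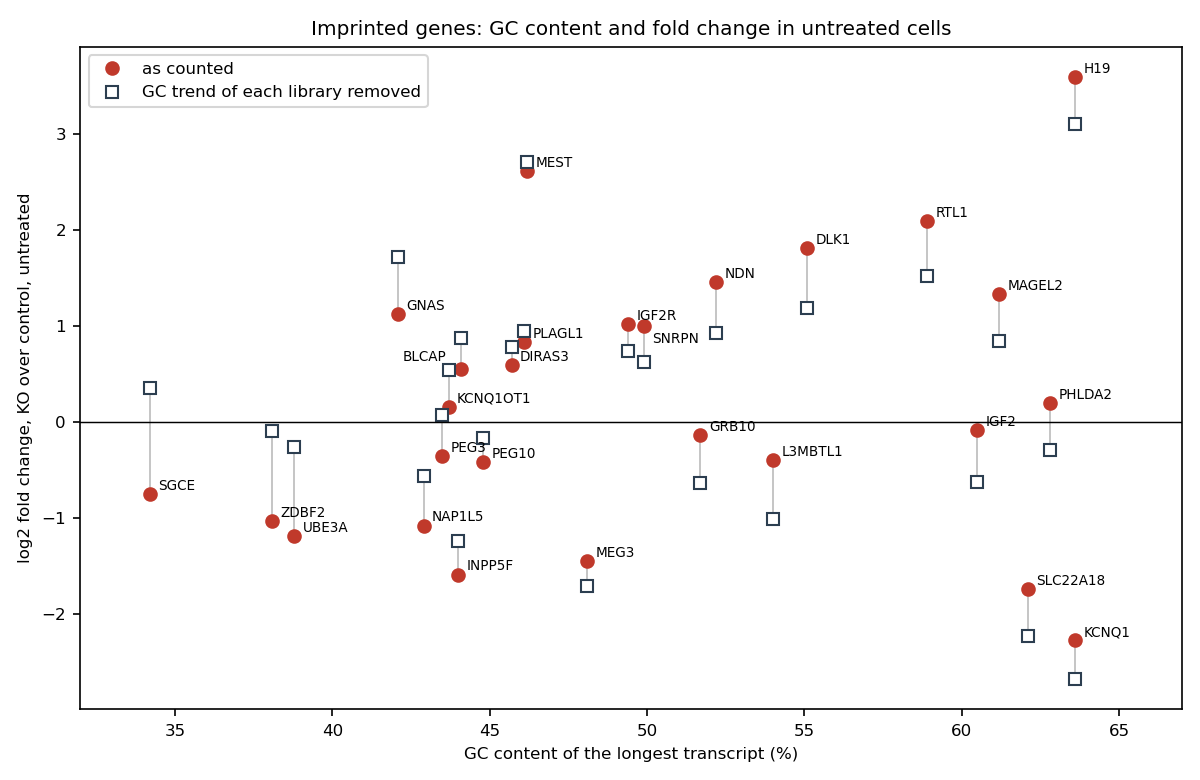
Log2 fold change, knockout over control in untreated cells, of the tested members against the GC content of their longest transcript, as counted (filled) and with each library's GC trend removed (open squares, joined by a line). AT-rich members shift up and GC-rich members down, and SGCE crosses 0, to 0.35.

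Of 29 tested genes that make or keep imprints (DNA methyltransferases and TET enzymes, KRAB zinc finger partners, Polycomb and maternal factors), 4 were lower and 0 higher in the untreated knockout, 13.8% of those tested, against 34.9% of all genes. HELLS, a chromatin remodeller of DNA methylation, fell to 16.9 ± 1.25 CPM in knockout cells, against 68.5 ± 36.2 CPM in control cells (mean ± SD, n = 3 each, edgeR adjusted p = 0.00644). Over the 21 alternatives its log2 fold change was -2.38 to -1.09, and it was not called with the near-identical libraries summed (edgeR adjusted p = 0.053). EED, a core subunit of Polycomb complex PRC2, fell to 8.22 ± 2.13 CPM, against 18.9 ± 6.03 CPM (mean ± SD, n = 3 each, edgeR adjusted p = 0.0134). EED was called in 16 of 21 alternative settings, and not without knockout untreated 1 or 2 or control untreated 3, and its log2 fold change of -1.21 turned to 0.11 with the GC trend removed. The list's median log2 fold change was -0.14, against -0.11 for all genes. With ATRA, 1 was higher and 3 were lower, again 13.8%, against 7.51% of all genes, among them TET1, which oxidises methylated cytosine, at 9.19 ± 0.602 CPM in knockout cells and 42.3 ± 30.9 CPM in control cells (mean ± SD, n = 3 each, edgeR adjusted p = 0.0183, at most 0.136 over the alternatives, of which 15 of 21 called it; not without knockout ATRA 1 or 3 or control ATRA 2).

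Of 34 further tested imprinted genes, 5 were higher and 3 lower in the untreated knockout, and 5 higher and 1 lower with ATRA. These are 23.5% and 17.6% of those tested, against 34.9% and 7.51% of all genes. Beside DIO3, TSSC4 of 11p15 rose to 65.3 ± 7.55 CPM in untreated knockout cells, against 36.9 ± 8.16 CPM in untreated control cells (mean ± SD, n = 3 each, edgeR adjusted p = 0.0113). With the GC trend removed, or with the near-identical libraries summed, TSSC4 was not called. FAM50B, a paternally expressed retrocopy, was at 1.89 ± 0.645 CPM in ATRA-treated knockout cells and 0.0378 ± 0.0205 CPM in ATRA-treated control cells, a control level below that of 3 counts (mean ± SD, n = 3 each, edgeR adjusted p = 0.0102). Of 55 tested genes that flank the 17 domains and are not known as imprinted in most tissues, 4 were higher and 15 lower in untreated cells, 34.5% of those tested, against 34.9% of all genes. COPG2, the vesicle coat gene beside MEST, fell to 11.4 ± 1.27 CPM in knockout cells, against 39.0 ± 14.3 CPM in control cells (mean ± SD, n = 3 each, edgeR adjusted p = 0.00433). PON2, beside the PEG10 domain, fell to 12.7 ± 1.09 CPM, against 32.5 ± 6.49 CPM (mean ± SD, n = 3 each, edgeR adjusted p = 0.00339). So MEST and its neighbour COPG2 were called in opposite directions, as were DLK1 and PPP2R5C at 14q32, the last chosen for mention after its values were seen (31.6 ± 3.99 CPM in knockout cells, 71.7 ± 14.6 CPM in control cells, SD, n = 3 each, edgeR adjusted p = 0.00454). WDR25, which flanks the domain of DLK1, was higher in both treatments. It was at 14.7 ± 1.47 CPM in untreated knockout cells and 6.31 ± 1.00 CPM in untreated control cells (edgeR adjusted p = 0.00878). With ATRA it was at 17.1 ± 0.853 CPM in knockout cells and 7.72 ± 2.64 CPM in control cells (edgeR adjusted p = 0.032, SD, n = 3 each). The WDR25 call held in 19 of 21 alternative settings untreated and in 11 of 21 with ATRA. With ATRA 1 flanking gene was higher and 2 were lower, 5.45% of those tested, against 7.51% of all genes.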

How the data were processed

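RNA of NT2/D1 cells was sequenced after library preparation by a stranded TruSeq mRNA kit (Illumina), per the labels. The authors deposited raw read counts per gene, with a gene length. Per the submitters' processing notes, bcl2fastq, TopHat2, Subread, featureCounts and DESeq2 were used on hg19 and GRCh37. No versions, annotation release or strand setting are given in the sources used here. Genes overlapping on opposite strands and near-identical copies are therefore uncertain.

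Of these counts, filterByExpr of edgeR 4.0.16 (minimum count 10) kept 19130 genes. After TMM scaling, edgeR's quasi-likelihood test was run under R 4.3.3 on all 12 libraries, with a mean for each group. It gave 5 contrasts, with Benjamini-Hochberg adjustment over all genes tested and a call at an adjusted p under 0.05. The common biological coefficient of variation was 0.367. CPM use TMM-scaled library sizes. TPM use the deposited lengths. The alternatives were RLE scaling, DESeq2 1.42.0, limma-voom (limma 3.58.1), no filter, a filter of over 1 CPM in at least 3 libraries, the replicate number as a block, the near-identical knockout libraries summed, knockout untreated 3 and ATRA 2 left out, removal of each library's GC trend (lowess, span 0.3), and each library left out in turn. GC content came from the longest GENCODE v44 transcript, matched by symbol for 91.6% of genes of at least 5 CPM. The steps were tested on simulated data.

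Values per library are given for members that reached 5 CPM in a group and were called in a comparison, and for the highest member of each domain with 2 or more. Of each other list, the 2 called genes with the smallest adjusted p per comparison between genotypes could be named. The members and lists (imprint keepers, further imprinted genes, domain neighbours and 5 sets of cell type markers) were chosen with earlier results of these data known.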

Additional observations from a re-analysis of the deposited data

How the results depend on the processing

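In untreated cells 15 members were called between knockout and control. With the near-identical knockout libraries summed the count was 3, beside 5.42% of all genes. Leaving out each library in turn gave 7 (without knockout untreated 2) to 19 (without control untreated 1), beside 15.5% and 42.8%. With ATRA the count was 2. It was 7 with DESeq2, 7 with no low-count filter and 1 with limma-voom, beside 15.5%, 6.32% and 5.31% of all genes. With the replicate block it was 1, beside 3.98%. It was 0 with the near-identical libraries summed and 1 without knockout untreated 3 and ATRA 2, beside 0.359% and 4.47%. When each library was left out in turn it was 0 (without knockout ATRA 1 or 3) to 6 (without control untreated 2). The shares of all genes were 1.22%, 1.11% and 10.9% in these 3 settings. For ATRA against untreated in the control the count was 0, with 3 by DESeq2 and 6 with no low-count filter, beside 8.47% and 3.84% of all genes. It was 0 to 9 when each library was left out, with 9 without control untreated 1, beside 12.4%. Members tested numbered 33 with no low-count filter, 26 with the stricter filter and 27 or 28 in the other settings. The counts for ATRA in the knockout and for the interaction were 0 in every alternative run. Of all genes, 6676 were called untreated and 1437 with ATRA, against 1072 and 71 with the near-identical libraries summed. With the GC trend removed, SGCE untreated reversed to a log2 fold change of 0.35, the only member that was called and changed sign, and of the other lists EED, SNHG14 and NIPA2 turned from lower to 0.11, 0.02 and 0.0069. Apart from the summed libraries, the cause of these changes was not tested. Deviations of same-numbered libraries correlated at -0.485 to 0.393, with no common sign. With 3 libraries per group this cannot decide whether the replicate numbers pair the libraries. With the replicate number as a block, 14 members were called untreated and 1 with ATRA, SLC22A18 and NDN being lost. Members with a mean under 1 CPM in both untreated groups, such as MEG3 and RTL1, rest on few reads there, and 3 replicates limit all tests.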

Other observations

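Markers of other cell types were also tested between genotypes, where 34.9% of all genes were called untreated and 7.51% with ATRA. Of the 10 stromal fibroblast markers, 6 were called higher and 1 (PDGFRA) lower in the untreated knockout, and 4 higher and 0 lower with ATRA. Of 7 tested neuronal markers, 3 were called higher and 1 lower in each treatment. Of 5 tested endoderm markers, 2 were called higher and 0 lower untreated, and 0 were called with ATRA by edgeR, with 2 at an unadjusted p under 0.05. Of 3 tested trophoblast markers, 0 were called in either treatment, with 1 at an unadjusted p under 0.05 untreated and 0 with ATRA. Of the 10 pluripotency markers, 0 were called higher and 1 lower untreated, and 0 were called with ATRA, with 5 at an unadjusted p under 0.05. DCN, a stromal proteoglycan, was at 22.5, 17.9 and 0.128 CPM in the untreated knockout, against 0.0267, 0.141 and 0.159 CPM in the untreated control, and with ATRA at 27.9, 0.264 and 26.4 CPM in knockout cells, against 0.246, 0.182 and 0.181 CPM in control cells. The part of these markers in the results on imprinted genes was not tested.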
